A study of Mus musculus with 2 samples.

Results

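The breakdown of the branched-chain amino acids (BCAAs) leucine, isoleucine and valine was followed through 10 of its genes in brown fat from between the shoulder blades (interscapular brown adipose tissue, iBAT), a depot that makes heat. The genes were Bcat1, Bcat2, Bckdha, Bckdhb, Dbt, Bckdk, Ivd, Hibadh, Mccc1 and Pcca. They were chosen by name, and all 10 were found by their symbol among the 27179 genes of both count tables. RNA had been sequenced from untreated C57BL/6N mice aged 20 days, with 1 library from wild-type animals and 1 from Ucp1 knockout (Ucp1-KO, Δ/Δ) animals, which lack functional uncoupling protein 1, the mitochondrial protein that turns respiration into heat. Each library came from iBAT of 3 pooled animals. No other allele or agent is given for either group. With 1 library per genotype there was no replicate and no test, so each difference below is one between 2 libraries and is set against counting error only.

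BCAA catabolism takes place mainly in mitochondria. A transaminase first removes the amino group, the branched-chain ketoacid dehydrogenase (BCKDH) complex then commits the carbon skeleton to oxidation, and separate branches for leucine, valine and isoleucine end in acetyl-CoA, acetoacetate or propionyl-CoA. The complex is switched off by a kinase and on by a phosphatase. Brown fat is known to take up and oxidise BCAAs when it makes heat, and the carrier SLC25A44 brings them into its mitochondria.

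The wild-type library held 52950913 counts and the Ucp1-KO library 53216727. Counts were divided by size factors of 1.11 and 0.901 to give normalised read counts, and differences are log2 ratios of Ucp1-KO over wild-type with a 95% counting interval. Ucp1 itself gave 366473 counts in wild-type against 37853 in Ucp1-KO. After normalisation 12.7% of the wild-type level was thus left in Ucp1-KO, lower but above 0. All 13 brown adipocyte markers were detected in both libraries. Of these markers, 9 had an interval above 0 and 3 below 0, and 4 were higher and 1 lower by 2-fold or more. Of the 15212 genes with a mean of 10 or more normalised counts, 31.5% had an interval above 0 and 30.5% below 0. By 2-fold or more, 7.42% of those genes were higher and 9.55% lower. The median log2 ratio of the 13 markers was 0.49, or 0.19 with the libraries scaled to total counts. It ran from -2.98 for Ucp1 to 2.52 for Elovl3 among the markers. The libraries differed in more than genotype. The 4 Y-linked genes examined had no count in wild-type and 99.7 CPM (counts scaled to a common total) together in Ucp1-KO, although the animals were described as male, and a gene without counts may still reach 0.113 CPM. All 23 skeletal muscle markers were lower in Ucp1-KO, with none at 0 in either library and a summed level of 7451 CPM in wild-type against 944.3 CPM in Ucp1-KO. Genotype, sex-linked transcripts and muscle transcripts therefore cannot be told apart here, and in pooled tissue fewer cells of a type cannot be told apart from less RNA per cell.

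None of the 10 genes differed by 2-fold or more between the libraries. The interval lay wholly above 0 for 6 of them (Bcat2, Bckdhb, Bckdha, Hibadh, Pcca and Dbt) and wholly below 0 for 1 (Mccc1), while Bcat1, Bckdk and Ivd were within counting error. With total counts as the scaling, Dbt, Pcca, Bckdk and Ivd all lay below 0 beyond counting error, and with the reference genes Tbp, Hsp90ab1 and Gtf2b the genes above 0 beyond it rose from 6 to 8. The 15212 genes that averaged 10 or more normalised counts give the background: 7.42% of them were higher and 9.55% lower by 2-fold or more, 31.5% had an interval above 0 and 30.5% an interval below 0. Intervals narrow as counts rise. Among the 1539 genes whose mean lay between 4301 and 21639 normalised counts, the range of the 9 genes other than Bcat1, 53.2% had an interval above 0 and 34.4% an interval below 0. With 6 of these 9 genes above and 1 below, the set was not far from other genes at its level. The median log2 ratio of the 10 genes was 0.094, or -0.21 with total counts, and the median size of the difference, either way, was 0.28. For the 9 genes other than Bcat1 the median was 0.11, the value of Pcca, and the median size 0.38, that of Hibadh. The 1539 genes at that level had a median of 0.097 and a median size of 0.27. The 9 genes were thus close to them in median but larger in median size. Over all genes examined the median was -0.0016 and the median size 0.37.

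**Figure D1:**
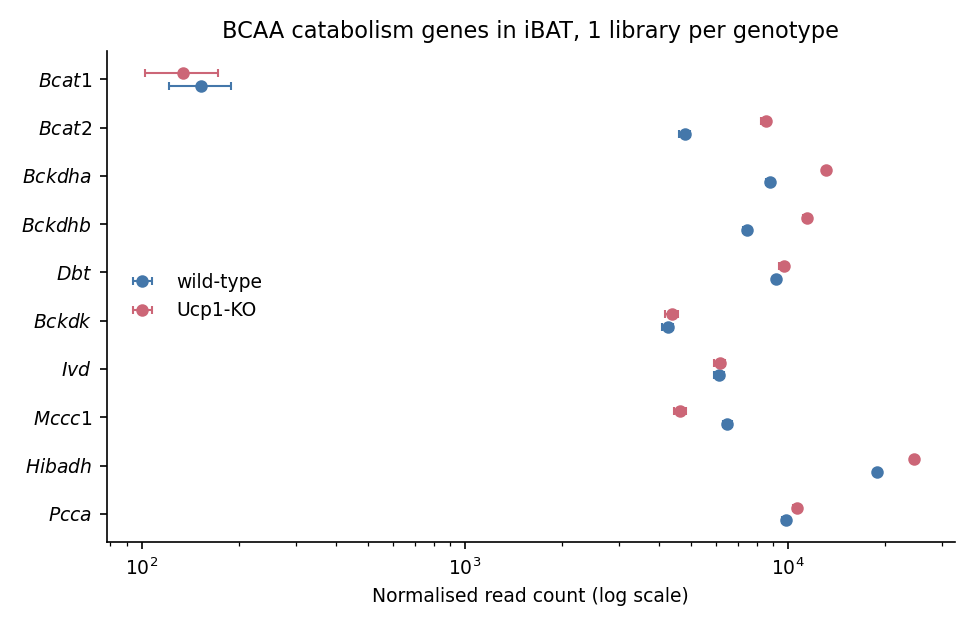
Normalised read counts of the 10 genes (log axis) in the wild-type and the Ucp1-KO library, 1 point per library with its exact 95% Poisson interval on read pairs. Bcat1 lies at 152 and 134 normalised counts and the other 9 genes lie above 4240, with the points of Bcat2, Bckdha, Bckdhb and Hibadh clearly to the right in Ucp1-KO and that of Mccc1 to the left.

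The first step is carried out by a pair of transaminases, cytosolic BCAT1 and mitochondrial BCAT2. Bcat2 (Entrez 12036, chromosome 7, 45219577 to 45239152, plus strand, GRCm39) gave 5306 counts (95% Poisson interval 5106 to 5512) in wild-type against 7674 (7433 to 7921) in Ucp1-KO. Its normalised level was 178% of wild-type (169% to 187%), a log2 ratio of 0.83 (0.76 to 0.90). This was the highest ratio in the set, above that of 90.3% of all genes examined. Bcat1 (Entrez 12035, chromosome 6, 144939556 to 145022254, minus strand), the form known from brain and dividing cells, gave 169 counts (135 to 209) in wild-type against 121 (92.4 to 156) in Ucp1-KO. Its log2 ratio of -0.18 ran from -0.68 to 0.31, so that at this depth neither a higher nor a lower level could be shown. Scaled to the length of the canonical transcript, Bcat2 stood 144-fold above Bcat1 (116 to 179) in wild-type against 291-fold in Ucp1-KO (226 to 375). With all annotated exons merged as the length, an alternative chosen after the data had been seen, these ratios were 91.3-fold and 184-fold. The ratio of the isozymes differed between the libraries by 1.01 on the log2 scale (0.533 to 1.496), a value that no scaling between libraries can move.

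The BCKDH complex is built from the E1 subunits encoded by Bckdha and Bckdhb, the E2 core encoded by Dbt and the E3 subunit encoded by Dld, which other complexes share. Bckdha (Entrez 12039, chromosome 7, 25326168 to 25358420, minus strand) gave 9736 counts (9464 to 10013) in wild-type against 11819 (11520 to 12124) in Ucp1-KO, for a log2 ratio of 0.58 (0.52 to 0.63). Bckdhb (Entrez 12040, chromosome 9, 83807130 to 84011081, plus strand) had 8277 counts (8027 to 8533) and 10320 counts (10040 to 10606), a log2 ratio of 0.62 (0.56 to 0.68). Both E1 subunits were thus higher in Ucp1-KO, at 149% and 153% of the wild-type level, and the ratio between them differed by -0.04 on the log2 scale, with an interval of -0.12 to 0.04. Dbt (Entrez 13171, chromosome 3, 116306686 to 116343633, plus strand) gave 10210 counts (9932 to 10494) in wild-type against 8726 (8469 to 8989) in Ucp1-KO. Its log2 ratio of 0.07 (0.01 to 0.13) was far smaller than that of E1. Per kilobase of transcript, Dbt stood at 0.60 of Bckdha (0.58 to 0.63) in wild-type against 0.42 in Ucp1-KO (0.41 to 0.44), a difference of -0.51 on the log2 scale (-0.59 to -0.43). With merged exons as the length the ratios were 1.20 and 0.85, so that which of these genes stood higher in wild-type depends on the length, while the difference between libraries does not. The E3 gene Dld, with a log2 ratio of 0.34 (0.31 to 0.36), lay between them.

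Start regions are shown for the E1 subunits and for the subunits of methylcrotonyl-CoA carboxylase described further on. Of the 6 pairs of partners compared here, these are the 2 in which both genes differed in the same direction while the ratio between them stayed within counting error, a choice made after the values were seen. They are the 250 bases before the RefSeq start on the gene's strand in build GRCm38.p6, at chr7:25658762-25659011 for Bckdha (minus strand), chr9:83924887-83925136 for Bckdhb (plus strand, the first of 2 starts), chr3:36000679-36000928 for Mccc1 and chr13:100015640-100015889 for Mccc2 (both minus strand). Capitals mark matches, on either strand and with overlaps allowed, to the CCAAT box, the GC box GGGCGG, the KLF-type box CCCCACCC, the E-box CACGTG, the ATF4-type element TGATGNAA and the nuclear receptor motif AAGGTCA.
Bckdha: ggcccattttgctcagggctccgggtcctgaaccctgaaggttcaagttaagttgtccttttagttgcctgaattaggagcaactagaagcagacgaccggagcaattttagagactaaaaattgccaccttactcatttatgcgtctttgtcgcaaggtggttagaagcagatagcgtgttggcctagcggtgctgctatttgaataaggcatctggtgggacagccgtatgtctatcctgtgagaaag
Bckdhb: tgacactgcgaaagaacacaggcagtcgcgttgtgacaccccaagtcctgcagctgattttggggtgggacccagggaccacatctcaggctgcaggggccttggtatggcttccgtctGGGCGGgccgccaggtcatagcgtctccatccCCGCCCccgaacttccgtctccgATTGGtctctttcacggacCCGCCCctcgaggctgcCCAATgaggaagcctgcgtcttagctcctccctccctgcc
Mccc1: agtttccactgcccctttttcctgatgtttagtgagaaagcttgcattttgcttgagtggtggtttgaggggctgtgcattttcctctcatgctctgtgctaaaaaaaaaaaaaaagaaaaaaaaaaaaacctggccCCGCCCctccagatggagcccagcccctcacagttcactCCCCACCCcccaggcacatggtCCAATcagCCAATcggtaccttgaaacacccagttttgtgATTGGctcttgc
Mccc2: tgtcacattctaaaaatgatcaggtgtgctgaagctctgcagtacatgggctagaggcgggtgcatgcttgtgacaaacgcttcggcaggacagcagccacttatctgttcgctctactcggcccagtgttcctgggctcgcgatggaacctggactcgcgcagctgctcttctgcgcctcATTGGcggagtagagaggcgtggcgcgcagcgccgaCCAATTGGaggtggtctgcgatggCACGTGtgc
No match to these letters stood in the Bckdha window. That of Bckdhb held 2 CCAAT boxes and 3 GC boxes. Both carboxylase windows held 3 CCAAT boxes, at -52, -44 and -12 from the start in Mccc1 and at -69, -33 and -30 in Mccc2, where the last 2 overlap on opposite strands. Mccc1 also held 1 GC box and 1 KLF-type box, and Mccc2 held 1 E-box. Of all 32851 windows in the table, 33.8% held the CCAAT box, 32.7% the GC box, 9.05% the KLF-type box and 6.02% the E-box. Windows were matched for 9 of the 10 genes, of which 7 held a CCAAT box, 4 a GC box and 2, Ivd and Mccc1, a KLF-type box. None of these 9 held the E-box, the ATF4-type element (in 3.45% of all windows) or the nuclear receptor motif (4.08%). A gene was counted if any of its windows matched, while the percentages are of single windows. The counts of genes and the percentages are thus in unlike units.

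The complex is governed by BCKDK, the kinase that inactivates E1, and by the phosphatase PPM1K. Bckdk (Entrez 12041, chromosome 7, 127502939 to 127510162, plus strand) gave 4708 counts (4520 to 4902) in wild-type against 3929 (3757 to 4107) in Ucp1-KO. The log2 ratio was 0.04 (-0.05 to 0.13), within counting error. Ppm1k was at -0.02 (-0.15 to 0.10), and the kinase stood 3.16-fold above the phosphatase per kilobase (2.94 to 3.38) in wild-type against 3.30-fold in Ucp1-KO (3.05 to 3.56). That ratio differed by 0.06 on the log2 scale, with an interval from -0.09 to 0.21. Klf15, which encodes a transcription factor known to raise BCAA catabolic genes in muscle and heart, went from 4258 to 947 counts, a log2 ratio of -1.87 (-2.02 to -1.72). Klf15 was the lowest gene of the pathway.

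In the leucine branch, IVD oxidises isovaleryl-CoA and methylcrotonyl-CoA carboxylase, of which MCCC1 is the biotin-bearing subunit, acts next. Ivd (Entrez 56357, chromosome 2, 118692141 to 118714335, plus strand) gave 6789 counts (6563 to 7021) in wild-type against 5537 (5333 to 5747) in Ucp1-KO, for a log2 ratio of 0.01 (-0.07 to 0.08). Its normalised level in Ucp1-KO was 100.4% of wild-type, with an interval of 95.4% to 105.6%. Mccc1 (Entrez 72039, chromosome 3, 36010879 to 36054881, minus strand) had 7197 counts (6964 to 7436) and 4177 counts (4000 to 4360). At 71.4% of wild-type (67.7% to 75.4%), it had a log2 ratio of -0.49 (-0.56 to -0.41) and was the lowest of the 10 genes. Its partner Mccc2 was at -0.60 (-0.69 to -0.51), and the ratio of the subunits, 1.04 in wild-type and 1.12 in Ucp1-KO per kilobase, differed by 0.11 on the log2 scale (-0.0026 to 0.23). With merged exons the ratios were 0.55 and 0.60. The next enzyme did not share that direction, since Auh, which hydrates methylglutaconyl-CoA, was at 0.67 (0.59 to 0.76).

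HIBADH, an enzyme of the valine branch, oxidises 3-hydroxyisobutyrate, a metabolite that can leave the cell. Hibadh (Entrez 58875, chromosome 6, 52430355 to 52617400, minus strand) was the most abundant of the 10 by normalised count. It gave 20896 counts (20497 to 21301) in wild-type against 22032 (21623 to 22447) in Ucp1-KO, for a log2 ratio of 0.38 (0.34 to 0.41). The other 4 enzymes of the branch were also above 0, from Acad8 at 0.20 to Hibch at 0.55, although Acad8 and Echs1 fell below 0 when the libraries were scaled to total counts. Hibch makes the substrate of HIBADH, and Aldh6a1 (0.49), which makes propionyl-CoA, acts after it.

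Propionyl-CoA from valine and isoleucine is carboxylated by an enzyme whose biotin-bearing subunit is PCCA. Pcca (Entrez 110821, chromosome 14, 122771526 to 123128534, plus strand) gave 10938 counts (10650 to 11232) in wild-type against 9621 (9351 to 9897) in Ucp1-KO, for a log2 ratio of 0.11 (0.06 to 0.17). Its partner Pccb was further above 0 at 0.37 (0.34 to 0.41). Pcca stood at 0.40 of Pccb per kilobase (0.39 to 0.41) in wild-type against 0.33 in Ucp1-KO (0.32 to 0.35), or 0.25 and 0.21 with merged exons, a log2 difference of -0.26 (-0.33 to -0.19). Further along, Mcee was at -0.44 (-0.52 to -0.35) and Mmut, the cobalamin-dependent mutase, at 0.17 (0.10 to 0.25).

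**Figure D2:**
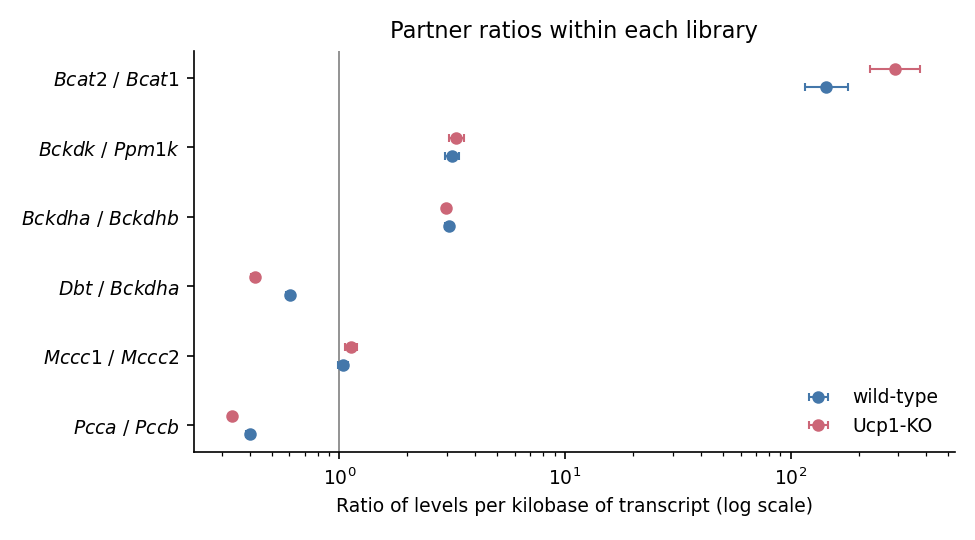
Ratio of the length-scaled levels of 6 pairs of partners within each library (log axis), with 95% counting intervals. Bcat2 to Bcat1 is higher and Dbt to Bckdha and Pcca to Pccb are lower in Ucp1-KO, while the intervals overlap for Bckdk to Ppm1k, Bckdha to Bckdhb and Mccc1 to Mccc2.

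Levels between genes were compared per kilobase of canonical transcript. Hibadh was highest in both libraries, with 10275 normalised counts per kilobase in wild-type and 13335 in Ucp1-KO, followed by Bckdha with 4587 and 6854. Bcat1 was lowest, with 18.6 and 16.4. In wild-type the neighbours Dbt (2758), Bcat2 (2673) and Mccc1 (2622) had overlapping intervals, as did Ivd (1248) and Bckdk (1193). In Ucp1-KO, Bcat2 followed next with 4759 while Mccc1, at 1873, was below Bckdhb at 2300, and Ivd (1253) and Bckdk (1226) again overlapped. The order depends on the transcript length assumed. With all annotated exons merged, Dbt was highest in wild-type and Bckdha in Ucp1-KO, and Bcat1 was lowest in both.

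The rest of the pathway was described with 27 further genes. Of these, 17 had an interval above 0 and 8 below 0, 2 were higher and 2 lower by 2-fold or more, and the median log2 ratio was 0.27. With total counts the balance turned, to 10 above and 13 below 0. Over all genes examined, 31.5% were above and 30.5% below 0 beyond counting error, against 14.5% and 53.8% with total counts. By 2-fold or more, 7.42% of all genes examined were higher and 9.55% lower. Among the 1539 genes between 4301 and 21639 normalised counts, 53.2% were above and 34.4% below 0 beyond counting error. The 27 genes themselves were not matched for level. The large differences lay in transport across the plasma membrane and in Klf15, not among the enzymes. Slc7a5, the light chain of the leucine transporter LAT1, went from 32 to 151 counts, a log2 ratio of 2.52 (1.75 to 3.42), and its heavy chain Slc3a2 from 2690 to 6833 counts, a log2 ratio of 1.64 (1.55 to 1.74). Slc7a8 was at 0.82 (0.66 to 0.99) and Slc43a2 at 0.56 (0.49 to 0.63), whereas Slc43a1 was at -1.43 (-1.85 to -1.03) with 438 and 132 counts. Slc25a44, the mitochondrial BCAA carrier of brown fat, had 5120 and 3874 counts and a log2 ratio of -0.10 (-0.19 to -0.02). The isoleucine branch was above 0 for Acadsb (0.06, 0.0019 to 0.12), Acat1 (0.31, 0.28 to 0.34) and Hsd17b10 (0.41, 0.35 to 0.47), of which Acadsb was below 0 with total counts. Of the 6 genes that handle the cofactors biotin and cobalamin, 3 were below 0 beyond counting error, lowest Mmab at -0.65 (-0.81 to -0.49), 2 (Mmachc and Mmadhc) were above but turned to -0.04 and -0.02 with total counts, and Hlcs, which attaches biotin to the carboxylases, was within error at -0.24 (-0.68 to 0.18).

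**Figure D3:**
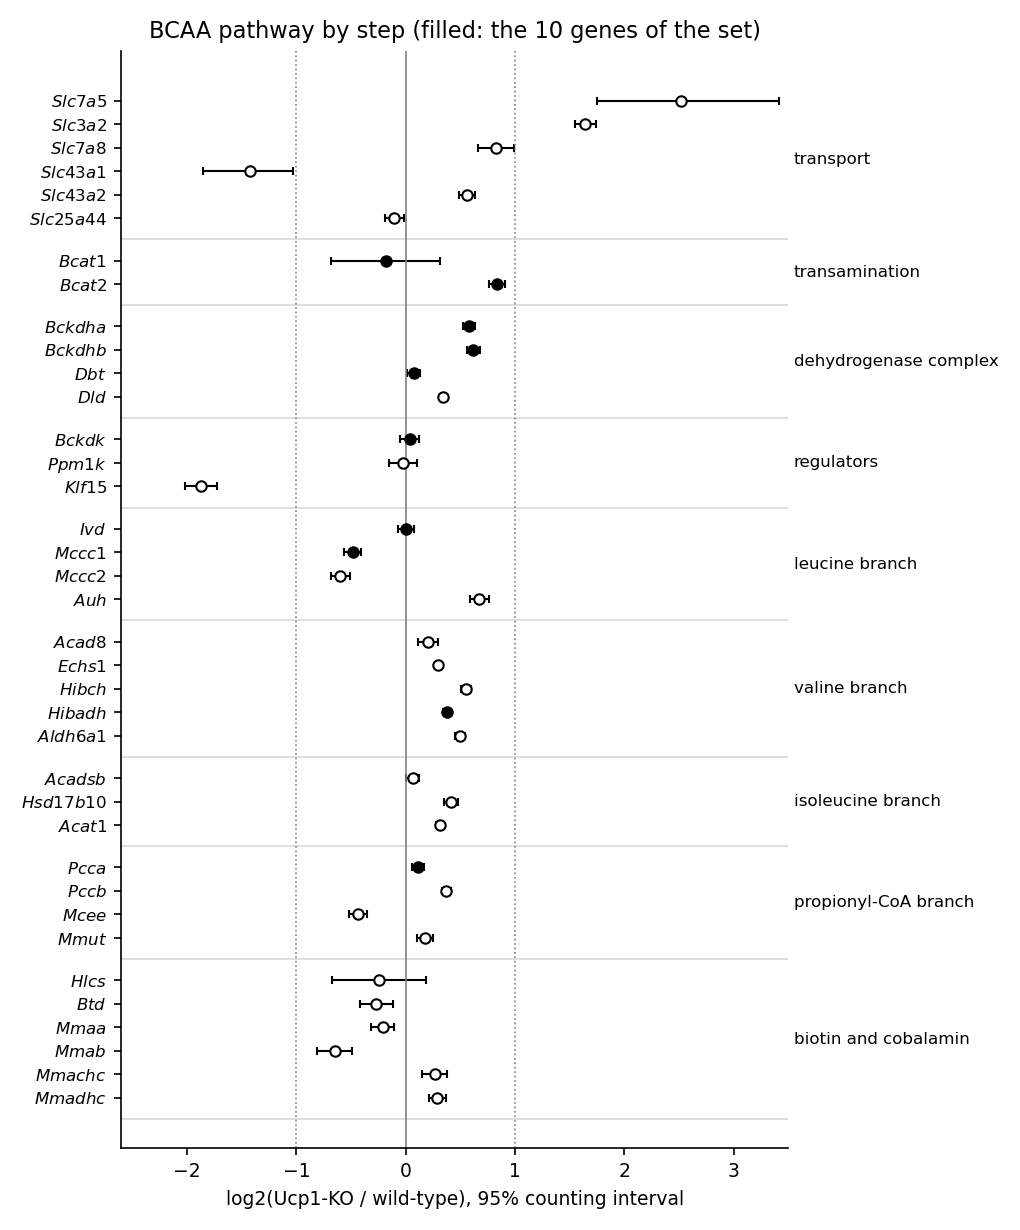
Log2 ratio of Ucp1-KO over wild-type for 37 genes of BCAA catabolism by step, with 95% counting intervals, filled for the 10 genes of the set. Dotted lines mark a 2-fold difference, which Slc7a5, Slc3a2, Slc43a1 and Klf15 pass and none of the filled points does.

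Other mitochondrial pathways were placed beside the set as a description. Of 16 tricarboxylic acid cycle genes 15 were examined, since Sdhd gave no count in either library, for a reason not tested. Among the 15 the median log2 ratio was 0.26 (from -0.22 for Suclg1 to 0.62 for Suclg2), and 14 of them had an interval above 0. The 16 fatty acid oxidation genes had a median of 0.30, from -0.10 for Cpt2 to 0.66 for Acadl, and again 14 lay above 0, but with total counts the median of both lists was just below 0. The list for pyruvate dehydrogenase, the complex that is the closest relative of BCKDH, mixes subunits with regulatory kinases and phosphatases. It was split evenly, with 5 genes above and 5 below 0 and a median of -0.05 (-0.35 with total counts, 0.04 with the reference genes). The extremes, -1.59 for Pdk3 and 0.87 for Pdp2, were both regulators. The subunit genes of this complex were looked at after their values were seen. Its E1 genes were at -0.22 for Pdha1 (-0.24 to -0.19) and -0.77 for Pdhb (-0.79 to -0.74), the opposite side of 0 from Bckdha and Bckdhb. Dlat was at 0.08 (0.05 to 0.11) and Pdhx at -0.14 (-0.20 to -0.08). Markers of other cell types also differed: 9 of 10 endothelial markers had an interval below 0, with a summed level of 2525 CPM in wild-type against 1251 CPM in Ucp1-KO and none at 0. Of 10 macrophage markers, 5 had an interval above 0, 3 of them at 2-fold or more, and 5 were within counting error, with a median of 0.19, or -0.12 with total counts. Of 8 fibroblast markers, 7 lay below 0, with a small median of -0.14 (-0.45 with total counts, -0.05 with the reference genes). T cell markers gave few counts, and 4 of the 5 examined were within counting error and the other below 0. Beside these lists, 31.5% of all genes examined had an interval above 0 and 30.5% an interval below 0. A log2 ratio above 0 was seen for 8 of the 10 genes of the set, or for 4 of 10 with total counts. Bckdk and Ivd, among the 8, were within counting error. The part of muscle and endothelial transcripts in the values of the set was not tested.

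**Figure D4:**
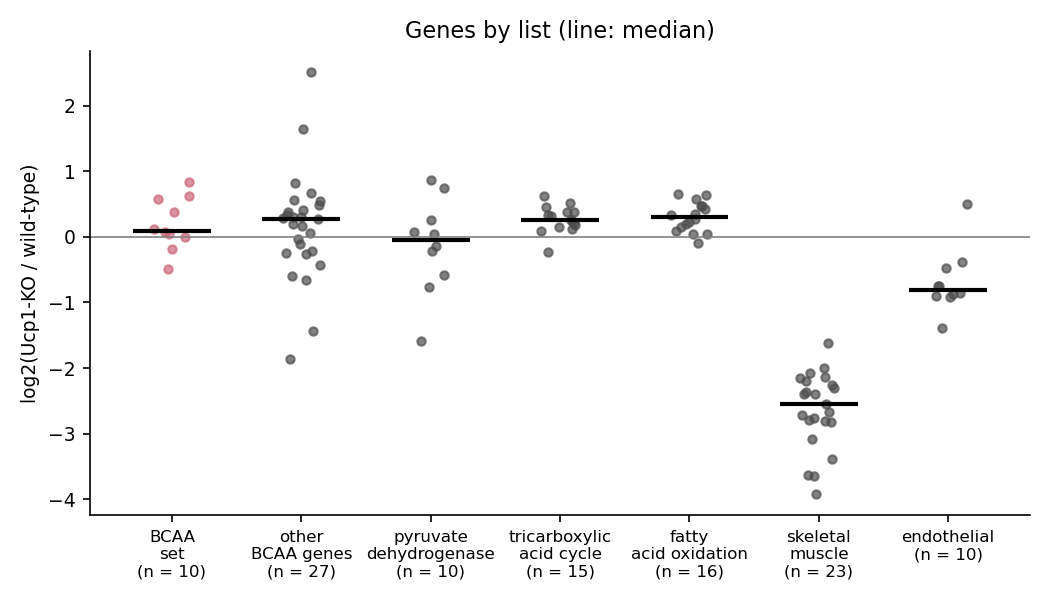
Log2 ratio of Ucp1-KO over wild-type for each gene examined (points) with the list's median (line) in the BCAA set, the other BCAA genes, 3 mitochondrial lists and 2 lists of cell type markers. The BCAA set spreads from -0.49 to 0.83 around a median of 0.094, and all 23 muscle markers lie below -1.6.

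How the libraries were scaled decided the sign of the small differences. Scaling to total counts shifted the median of all genes by -0.31. Under it Bcat2 (0.53), Bckdhb (0.31), Bckdha (0.27) and Hibadh (0.07) stayed above 0, while Dbt (-0.23) and Pcca (-0.19) turned to the other side and Mccc1 went to -0.79, so that 4 genes lay above and 5 below 0 beyond counting error. Ivd, at 0.01, was also below 0 with TMM factors. In all, total counts turned the sign of 10 of the 37 pathway genes, all from above to below 0, among them Acad8 (-0.11), Echs1 (-0.0088), Acadsb (-0.24) and Mmut (-0.13), and took the tricarboxylic acid cycle median to -0.04 and that of fatty acid oxidation to -0.0042. The median of the valine branch stayed above 0 at 0.07. The reference genes Tbp, Hsp90ab1 and Gtf2b turned Ppm1k, which was within counting error, to above 0. What lay between genes was not affected. Bcat2 and Mccc1, the ends of the set, differed by 1.32 on the log2 scale (1.21 to 1.42) under any scaling, a 2.49-fold spread.

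**Figure D5:**
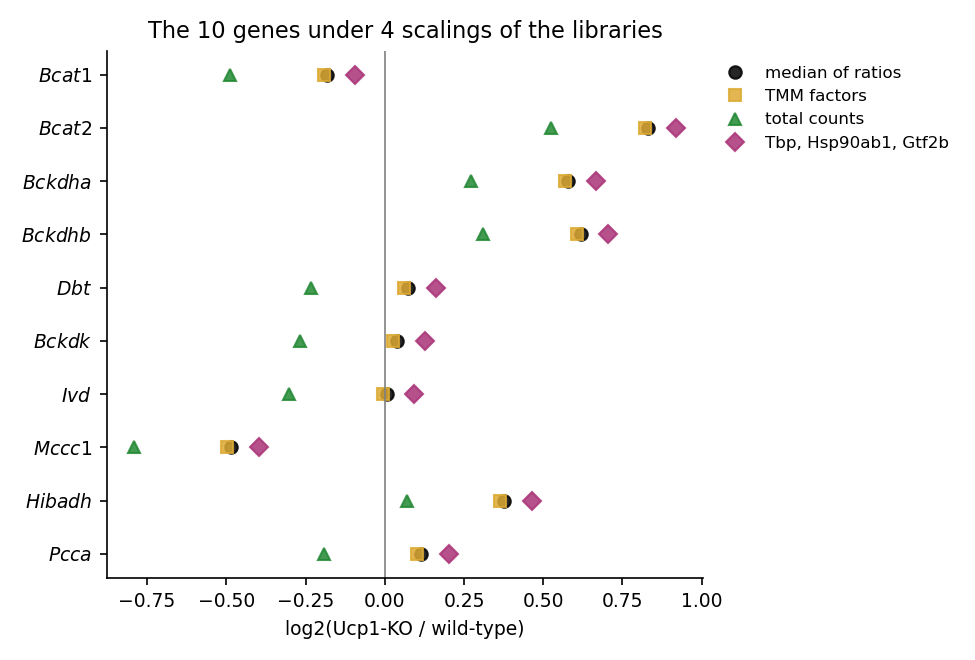
Log2 ratio of Ucp1-KO over wild-type for the 10 genes under 4 ways to scale the libraries, 1 symbol per scaling. Each scaling moves all genes by the same amount, and Bcat2, Bckdha, Bckdhb and Hibadh stay above 0 and Mccc1 and Bcat1 below 0 under all 4.

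Some counts could include reads of other genes, or miss shared reads, since the strand and overlap settings of the counting were not stated. The counts of overlapping genes are given for scale and do not measure reads assigned to the wrong gene. Exons of B3gnt8 overlap those of Bckdha on the opposite strand, with 111 counts in wild-type against 22 in Ucp1-KO, or 1.14% and 0.186% of the Bckdha counts. Ggact overlaps Pcca, with 505 and 515 counts, or 4.62% and 5.35% of it. Mccc1os, with 32 and 28 counts, and 0610005C13Rik, with 7 and 12, lie opposite Mccc1 and Bcat2. Bcat1, Ivd, Mccc1 and Hibadh also overlap annotated genes that were not among the counted genes, so no count can be given for those. For Hibadh this was Gm24355, the only overlap on the same strand. Bckdhb, Dbt and Bckdk share no exon with an annotated gene.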

How the data were processed

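RNA of iBAT from 1 wild-type and 1 Ucp1-KO pool of 3 animals was sequenced from strand-specific, poly-A-enriched libraries. The authors deposited whole-number counts of reads per Entrez gene, not normalised, made with featureCounts. Trim Galore, HISAT2 and the build mm39 are named in the submitters' processing notes. Versions, annotation and counting settings are not given in the sources used here. Genes without a symbol (1319, with 0.156% and 0.121% of the counts) were kept.

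Size factors were median of ratios (DESeq2 1.42.0, R 4.3.3), and TMM factors came from edgeR 4.0.16. Log2 ratios used a pseudocount of 0.5, and a gene was examined if its normalised counts averaged 10 or more. Low counts were mostly even (70.7% of values from 1 to 10 in wild-type, 73.4% in Ucp1-KO), so intervals (exact Poisson for counts, exact conditional binomial for ratios, and a normal approximation on the log scale for ratios between genes) were computed on read pairs, taken as 2 counts each, and the limit of a count of 0 was set at 3 pairs. Without molecular identifiers these intervals and limits describe counting error alone and leave out scaling error and the spread between animals. The interval computation was checked on data simulated from the same Poisson model of read pairs. That checks the code, not whether the model holds for these libraries.

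All 10 genes, Ucp1 and any gene of the pathway lists could be named, and of other lists the lowest and highest gene. Outside this rule, the subunit genes of pyruvate dehydrogenase were named after their values were seen, and Sdhd for its lack of counts. The genes and lists were chosen with earlier results of these data known. 1 gene of the leucine branch is not reported here and was left out of the lists. Gene symbols were looked up in GENCODE mouse release 39 for positions on GRCm39. The Ensembl canonical transcript gave lengths. Promoter windows are RefSeq's in GRCm38.p6. Alternatives were TMM, total counts, the reference genes Tbp, Hsp90ab1 and Gtf2b, a pseudocount of 5, other minimum means, a log2 rule of 1.5, intervals on counts as deposited, and sums in place of medians.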

Additional observations from a re-analysis of the deposited data

How the results depend on the processing

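No paired analysis was possible because there was only 1 library per genotype, so libraries could not be left out in turn either. No gene of the set reached a 2-fold difference under any alternative run, a log2 rule of 1.5 included. TMM factors, a pseudocount of 5, no filter and a minimum mean of 50 left each log2 ratio within its counting interval.

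Total counts reversed the median of the 10 genes, to -0.21, that of the 27 other pathway genes, to -0.0398, Dbt, to -0.23, and Pcca, to -0.19, and raised the count of genes lower beyond counting error from 1 to 5. These changes follow the shift of -0.31 that this scaling gives to all genes. The reference genes moved the median of the 27 genes to 0.35, a shift of 0.087. The summed normalised counts of the 10 genes gave 0.295 in place of the median of 0.094, since the abundant genes weigh most in a sum. Counts beyond counting error under other scalings, and merged exon lengths, were alternatives chosen after seeing the data. With counts as deposited in place of read pairs, 7 genes were beyond counting error, as before. Depth limits Bcat1, Hlcs and Slc7a5, whose intervals are wide.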
